A study of Mus musculus with 10 samples.

Results

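Zfp36, Zfp36l1, Zfp36l2, Zc3h12a, Zc3h12d, Rc3h1 and Rc3h2 encode RNA-binding proteins of the CCCH zinc finger type that shorten the life of mRNAs. These 7 genes were found in the deposited count table by their Ensembl identifiers in the mouse GRCm38 annotation, out of 21556 genes in all, and each of the 7 passed the filter on low counts that left 13920 genes for testing. They were described in regulatory T cells (Tregs) sorted by red fluorescence from mice that had been injected with a lymphangiogenic melanoma line.

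Tristetraprolin (Zfp36), ZFP36L1 and ZFP36L2 bind AU-rich elements in the 3′ UTR of mRNAs for cytokines and other short-lived messages, and recruit the CCR4-NOT complex, which removes the poly(A) tail. Regnase-1 (Zc3h12a) is an endonuclease that cuts mRNAs at stem-loops, and Regnase-4 (Zc3h12d) is a related protein of lymphocytes. Roquin-1 (Rc3h1) and Roquin-2 (Rc3h2) also bind stem-loops and call in the deadenylase. In T cells these proteins are known to limit messages such as Icos, Rel, Nfkbid and Nfkbiz, and T cell receptor signals remove Regnase-1 and the Roquins through the protease MALT1.

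Libraries of 4 groups were compared, all from mice of 10 weeks. There were 2 libraries from tumor and 2 from LN of mice with the genotype MHCIIdeltaProx-1, which are Prox1 Cre positive, and 3 from tumor and 3 from LN of MHCIIfl/fl mice, which are Cre negative. In the first genotype, called MHCII-deleted here, Cre is driven by the lymphatic gene Prox1 and takes MHC class II off lymphatic endothelium, so the deletion cannot be read in sorted Tregs. The floxed allele is shared by all mice, and the second genotype is called control. The labels do not say that libraries came from separate mice, so p-values measure only the spread between these libraries, which may be technical.

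Total counts lay between 28539329 and 35736175 per library, and the lowest count of any of the 7 genes was 464, for Zc3h12a in an LN library of MHCII-deleted mice. A count of 0 would have allowed up to 0.0809 to 0.107 CPM (TMM-normalised CPM, floor of 3 counts), and such floors cover counting error only. Foxp3, the lineage factor of Tregs, averaged 346 CPM in tumor of MHCII-deleted mice, 738 CPM in tumor of control mice, 617 CPM in LN of MHCII-deleted mice and 687 CPM in LN of control mice. A list of 10 Treg genes, Foxp3 among them, summed to 4073 to 4839 CPM in tumor of MHCII-deleted mice. The same sum was 9697 to 10550 CPM in tumor of control mice, against 3625 to 3825 CPM and 4029 to 4541 CPM in LN. Melanoma markers (12 genes) summed to 19250 to 23540 CPM in tumor libraries of MHCII-deleted mice and to 4860 to 9472 CPM in those of control mice, with all 12 detected in both, against 28.0 to 34.5 CPM and 16.3 to 26.6 CPM in LN. Pan-T cell genes (24 listed, of which Ptprcap was at 0 in every library) summed to 6805 to 8080 CPM in tumor of MHCII-deleted mice and to 15730 to 16390 CPM in tumor of control mice, against 17010 to 17190 CPM and 16690 to 17540 CPM in LN. Stromal and endothelial markers ranged over 369 to 928 CPM in tumor of MHCII-deleted mice and 563 to 4292 CPM in tumor of control mice, while myeloid markers did not exceed 63.9 CPM, B cell markers 32.8 CPM and CD8 T and NK markers 98.0 CPM in any library. Because the groups differ in these sums, fold changes were also computed with libraries scaled to the 23 tested pan-T cell genes (pan-T scaling). A value without a named scale is on the TMM scale, and not every value is given on both. The part of non-T cell RNA in the members' levels was not tested, and fewer cells of a type cannot be told apart from less RNA per cell.

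The 3 genes of the Zfp36 family differ in base composition. The most GC-rich stretch of 100 coding bases in each is shown here, because the libraries differed in how GC-rich genes were represented (capitals mark G and C, sequences from GENCODE M21 transcripts, 5′ to 3′). It lies in exon 2 of 2 in all 3 genes, each on the minus strand of GRCm38, and holds 85% G and C in Zfp36l2 (chr17:84185963-84186062), 73% in Zfp36l1 (chr12:80110008-80110107) and 70% in Zfp36 (chr7:28378288-28378387).
Zfp36l2: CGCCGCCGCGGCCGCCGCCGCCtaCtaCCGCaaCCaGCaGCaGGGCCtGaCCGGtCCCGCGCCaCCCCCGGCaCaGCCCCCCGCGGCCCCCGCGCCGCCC
Zfp36l1: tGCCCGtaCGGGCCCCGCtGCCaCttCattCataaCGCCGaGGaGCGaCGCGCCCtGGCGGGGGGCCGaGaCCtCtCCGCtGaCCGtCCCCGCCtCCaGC
Zfp36: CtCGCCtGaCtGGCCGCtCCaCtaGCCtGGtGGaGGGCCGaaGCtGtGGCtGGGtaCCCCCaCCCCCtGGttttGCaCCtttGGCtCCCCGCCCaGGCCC

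Over the whole coding sequence, G and C made up 71.0% of Zfp36l2, 62.6% of Zfp36l1 and 61.9% of Zfp36. Windows of 100 bases with more than 75% G and C covered 31.4% of the longest Zfp36l2 transcript, a larger share than in 99.2% of genes. Such windows covered 0% of Zfp36, Zfp36l1 and Zc3h12a, 3.62% of Zc3h12d, 1.71% of Rc3h1 and 1.72% of Rc3h2.

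The core of the AU-rich element that the Zfp36 family binds is UAUUUAU, which is TATTTAT in DNA letters. It was searched on the transcript strand of the 3′ UTRs, counting overlapping matches, and is shown in capitals in 1 site of at most 30 bases per gene, since these mRNAs carry the element that their own products bind. Tnf, the classic target of tristetraprolin, is set beside them.
Zfp36 (chr7:28376962-28376991): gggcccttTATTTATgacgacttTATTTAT
Zfp36l1 (chr12:80108421-80108450): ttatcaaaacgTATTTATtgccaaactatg
Zfp36l2 (chr17:84184913-84184942): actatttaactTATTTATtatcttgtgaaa
Tnf (chr17:35199678-35199707): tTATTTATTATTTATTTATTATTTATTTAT

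The 3′ UTRs of Zfp36, Zfp36l1 and Zfp36l2 hold 3 matches each, in 774, 1835 and 1822 bases, and that of Tnf holds 8 in 764 bases. Rc3h1 has 2 in 7181 bases and Rc3h2 has 3 in 5160 bases, while Zc3h12a (856 bases) and Zc3h12d (2327 bases) have none. Among 20025 protein coding genes with a 3′ UTR (median length 814 bases), 25.7% hold at least 1 match. A match is a description of the letters and does not show binding.

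Levels were first compared between genes per kilobase of exon. In tumor of control mice the order was Zfp36 (168 ± 25.1 CPM per kb, SD, n = 3), Zfp36l1 (159 ± 26.3), Zc3h12a (73.9 ± 12.5), Zc3h12d (45.0 ± 3.2), Zfp36l2 (40.2 ± 15.1), Rc3h1 (4.76 ± 0.641) and Rc3h2 (2.20 ± 0.699). Zfp36 and Zfp36l1 differed by less than either SD there, as did Zc3h12d and Zfp36l2 by less than the SD of Zfp36l2. In LN of control mice Zfp36 (100.5 ± 13.6 CPM per kb, SD, n = 3) and Zfp36l1 (93.6 ± 7.97) again led within their spread, followed by Zc3h12d (39.6 ± 4.12), Zfp36l2 (10.1 ± 1.58), Zc3h12a (7.15 ± 0.485), Rc3h1 (3.73 ± 0.508) and Rc3h2 (1.88 ± 0.197). The Roquin mRNAs were thus the lowest of the 7 per length in both tissues. Exon length is the union over transcripts, which for Rc3h2 (19624 bases) is longer than its listed transcript of 8799 bases, so its level per kilobase may be understated.

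In the Zfp36 family, Zfp36 (ENSMUSG00000044786, chr7:28376784-28380253) had 214 and 298 CPM in tumor of MHCII-deleted mice, 505, 678 and 568 CPM in tumor of control mice, 325 and 358 CPM in LN of MHCII-deleted mice, and 304, 398 and 345 CPM in LN of control mice. The tumor libraries of control mice were the highest 3 of the 10, those of MHCII-deleted mice the lowest 2, and the LN libraries of both genotypes lay between and overlapped each other. Zfp36l1 (ENSMUSG00000021127, chr12:80107754-80113013) had 207 and 183 CPM in tumor of MHCII-deleted mice, 389, 496 and 542 CPM in tumor of control mice, 262 and 282 CPM in LN of MHCII-deleted mice, and 258, 305 and 277 CPM in LN of control mice. Its order of groups was that of Zfp36, with no overlap between the tumor groups and the rest. Zfp36l2 (ENSMUSG00000045817, chr17:84183931-84187947) had 62.5 and 267 CPM in tumor of MHCII-deleted mice, 200.3, 96.1 and 129 CPM in tumor of control mice, 364 and 274 CPM in LN of MHCII-deleted mice, and 39.5, 37.8 and 29.1 CPM in LN of control mice. It was lowest in all 3 LN libraries of control mice and highest in LN of MHCII-deleted mice, and the 2 tumor libraries of MHCII-deleted mice lay on either side of those of control mice.

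Of the Regnases, Zc3h12a (ENSMUSG00000042677, chr4:125118423-125127840) had 65.4 and 64.9 CPM in tumor of MHCII-deleted mice, 178, 249.97 and 211 CPM in tumor of control mice, 13.2 and 18.3 CPM in LN of MHCII-deleted mice, and 20.9, 19.1 and 21.8 CPM in LN of control mice. Its 4 groups did not overlap, and every tumor library lay above every LN library. Zc3h12d (ENSMUSG00000039981, chr10:7832470-7870396) had 85.7 and 102 CPM in tumor of MHCII-deleted mice, 171, 184 and 198 CPM in tumor of control mice, 159.8 and 155 CPM in LN of MHCII-deleted mice, and 156, 181 and 149 CPM in LN of control mice. It was low only in both tumor libraries from MHCII-deleted mice, and the other groups lay close together.

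Of the Roquins, Rc3h1 (ENSMUSG00000040423, chr1:160906418-160974978) had 38.5 and 32.5 CPM in tumor of MHCII-deleted mice, 49.2, 50.2 and 62.2 CPM in tumor of control mice, 54.3 and 45.0 CPM in LN of MHCII-deleted mice, and 47.2, 43.4 and 35.9 CPM in LN of control mice. The range over all 10 libraries was narrow, and only the tumor groups stood apart from each other by genotype. Rc3h2 (ENSMUSG00000075376, chr2:37370069-37422903) had 72.6 and 41.2 CPM in tumor of MHCII-deleted mice, 35.5, 59.0 and 34.9 CPM in tumor of control mice, 47.2 and 41.4 CPM in LN of MHCII-deleted mice, and 41.0, 33.4 and 36 CPM in LN of control mice. In tumor the genotypes overlapped, since 1 library of each was high, and in LN both libraries of MHCII-deleted mice were above all 3 of control mice by a small margin. Zfp36, Zfp36l1, Zfp36l2 and Zc3h12d overlap a gene on the opposite strand. The strand setting of the counting is not given in the sources used here, so reads of those partners cannot be told apart from theirs. Zc3h12d, Rc3h1 and Rc3h2 also overlap genes on the same strand, by up to 3578 bases for Rc3h1, which no strand setting would separate.

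**Figure D1:**
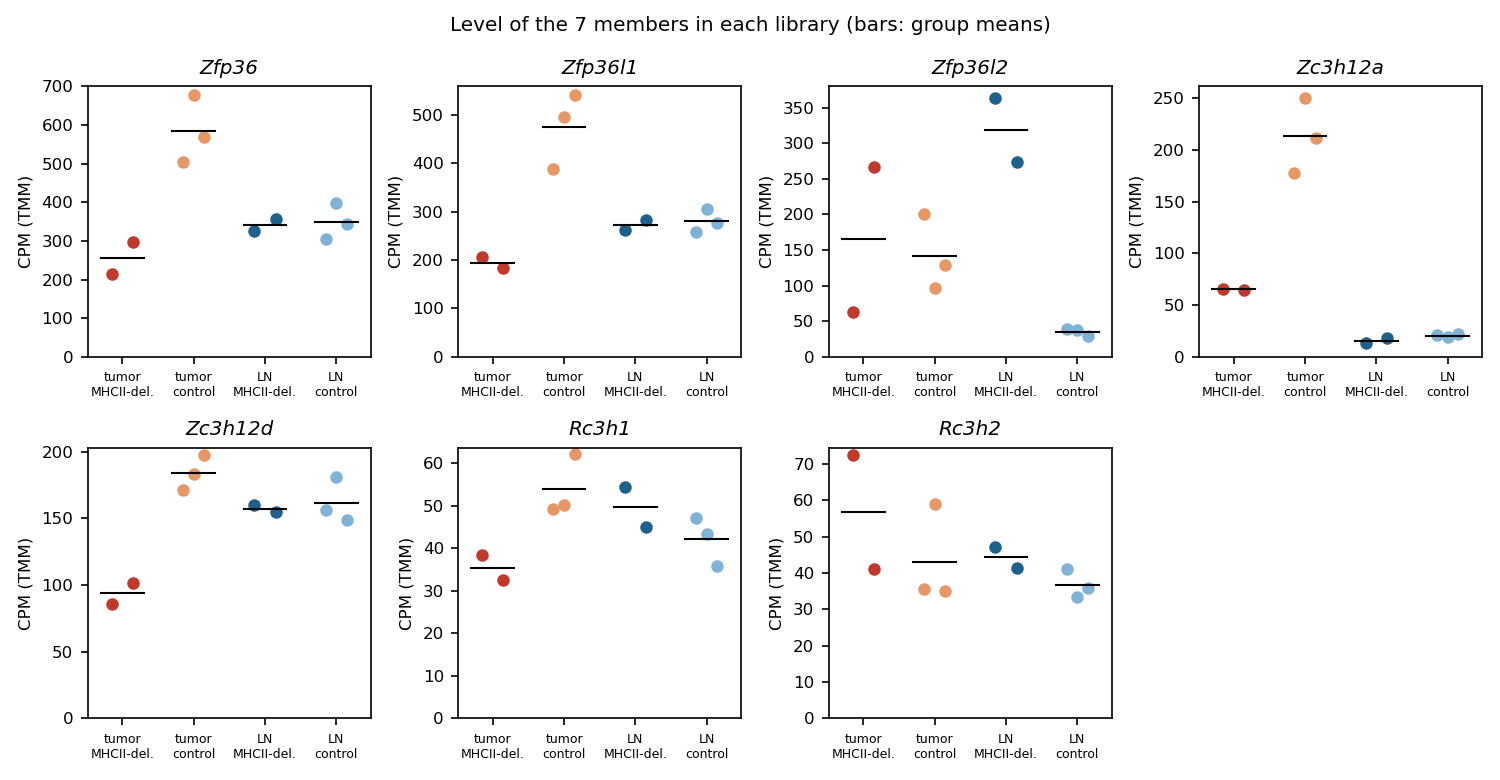
Level of each of the 7 genes in each of the 10 libraries (y axis, TMM-normalised CPM from 0) by group (x axis), with bars at group means. Zfp36, Zfp36l1, Zc3h12a, Zc3h12d and Rc3h1 are lower in both tumor libraries of MHCII-deleted mice than in all 3 of control mice, as are 24% of all tested genes. With pan-T scaling the decrease held as a call for Zc3h12a only, and it turned to 0.05 (log2) for Zc3h12d and 0.45 for Rc3h1. Zfp36l2 stands at 274 to 364 CPM in LN of MHCII-deleted mice and at 29.1 to 39.5 CPM in LN of control mice.

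The comparison of tumor with LN in control mice asks how the decay genes of Tregs in the tumor differ from those of LN Tregs of the same genotype. Zc3h12a was 10.35-fold higher in tumor, the largest change of the 7, and Zfp36l2, Zfp36l1 and Zfp36 were also higher. On the log2 scale Zc3h12a rose by 3.37 ± 0.167 (SE, edgeR quasi-likelihood test, adjusted p = 6.2e-07) and by 3.72 with pan-T scaling (edgeR, adjusted p = 5.9e-07). Zfp36 rose by 0.74 ± 0.156 (edgeR, adjusted p = 0.0044) and Zfp36l1 by 0.76 ± 0.127 (edgeR, adjusted p = 0.00122), and all tumor libraries were above all LN libraries for both. Zfp36l2 rose by 2.00 ± 0.469 (edgeR, adjusted p = 0.00857), by 0.75 with the GC contrast of the libraries, described with the LN results, as a covariate (edgeR, adjusted p = 0.0054), and stood at -2.53 with a GC index, the mean level of GC-rich genes in each library, as covariate (edgeR, adjusted p = 0.319). With that GC index the direction of Zfp36 was turned as well (-0.26, edgeR, adjusted p = 0.881), and Zfp36l1 did not pass (1.20, edgeR, adjusted p = 0.284). The index did not overlap between groups. In control mice it was -0.51 to -0.42 in LN and 0.17 to 0.21 in tumor. In MHCII-deleted mice it was -0.17 to -0.13 in LN and 0.45 to 0.71 in tumor. Such a covariate cannot be told apart from tissue and genotype, so fits with it cannot decide whether these differences depend on GC. Zc3h12d (0.19 ± 0.109), Rc3h1 (0.35 ± 0.156) and Rc3h2 (0.23 ± 0.25) did not pass (edgeR, adjusted p = 0.201, 0.0976 and 0.499).

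Thus 4 of the 7 were called higher in tumor of control mice and 0 lower, where 38.9% of all tested genes were called, 22.8% higher and 16.1% lower. The median log2 fold change was 0.743 over the 7 genes and 0.0785 over all tested genes. With pan-T scaling the median of all tested genes was 0.428, 39% were called, 34% higher and 5.02% lower, and 6 of the 7 were higher, since Zc3h12d (0.54) and Rc3h1 (0.70) also passed (edgeR, adjusted p = 0.00404 and 0.0148). Libraries did not overlap, with tumor higher, for Zfp36, Zfp36l1, Zfp36l2, Zc3h12a and Rc3h1. Groups did not overlap for 53% of all tested genes, with tumor higher for 29%.

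In MHCII-deleted mice the same tissue comparison gave a different picture on the TMM scale. Zc3h12a was again higher in tumor, by 2.05 ± 0.195 (log2, 4.14-fold, edgeR, adjusted p = 2.94e-05), and by 3.47 with pan-T scaling (edgeR, adjusted p = 1.94e-06). Zc3h12d fell by 0.75 ± 0.134 (edgeR, adjusted p = 0.00147) and Zfp36l1 fell by 0.48 ± 0.156 (edgeR, adjusted p = 0.029), but with pan-T scaling both turned to increases, of 0.66 and 0.94 (edgeR, adjusted p = 0.00168 and 0.00154). Zfp36 (-0.41 ± 0.190), Rc3h1 (-0.49 ± 0.191), Zfp36l2 (-0.95 ± 0.555) and Rc3h2 (0.36 ± 0.306) did not pass on the TMM scale (edgeR, adjusted p = 0.101, 0.0623, 0.189 and 0.360), and with pan-T scaling Zfp36 (0.98), Rc3h1 (0.94) and Rc3h2 (1.82) did (edgeR, adjusted p = 0.000615, 0.00438 and 0.00137). The call of Zfp36l1 on the TMM scale was lost without either LN library of this genotype (adjusted p = 0.0683 and 0.128) and without tumor library 2 (edgeR, adjusted p = 0.124). It was also lost with RLE size factors (-0.38, edgeR, adjusted p = 0.075), with DESeq2 (adjusted p = 0.0574), with limma-voom (adjusted p = 0.0511) and in a fit of the compared groups alone (edgeR, adjusted p = 0.0514). With the GC index as covariate Zfp36l1 stood at 0.0018, and Zc3h12a (2.10) and Zc3h12d (-1.42) did not pass (edgeR, adjusted p = 0.124 and 0.110).

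For Zfp36l2 the result rested on which tumor library of MHCII-deleted mice was kept. Without library 2 (267 CPM) its log2 fold change against LN was -2.35 (edgeR, adjusted p = 0.00168), and without library 1 (62.5 CPM) it was -0.26 (edgeR, adjusted p = 0.624). Of the 7 genes, 1 was called higher and 2 lower, where 44.4% of all tested genes were called, 24.3% higher and 20.1% lower. Tumor libraries lay wholly above LN for Zc3h12a and wholly below for Zfp36, Zfp36l1, Zfp36l2, Zc3h12d and Rc3h1, and groups did not overlap for 75.6% of all tested genes, 39.2% with tumor higher and 36.4% lower. The median log2 fold change was -0.484 over the 7 and 0.0658 over all tested genes, and with pan-T scaling these were 0.943 and 1.48, with 6 of the 7 called higher and 0 lower, and 71.8% of all tested genes called, 70.1% higher and 1.61% lower. Zc3h12a was the one member whose tumor level was called higher in both genotypes and on both scales.

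The deletion effect in tumor compares MHCII-deleted with control mice and addresses whether loss of MHC class II on lymphatic endothelium goes with a different state of the tumor Tregs. On the TMM scale 5 of the 7 genes were lower in MHCII-deleted mice, led by Zc3h12a at a ratio of 0.306. Zc3h12a fell by 1.71 ± 0.180 on the log2 scale (edgeR, adjusted p = 0.000277), Zfp36l1 by 1.29 ± 0.148 (edgeR, adjusted p = 0.000376) and Zfp36 by 1.19 ± 0.180 (edgeR, adjusted p = 0.00142). Zc3h12d fell by 0.97 ± 0.126 (edgeR, adjusted p = 0.000642) and Rc3h1 by 0.60 ± 0.177 (edgeR, adjusted p = 0.0299). Both libraries of MHCII-deleted mice were below all 3 of control mice for these 5 genes. Groups did not overlap for 53.6% of all tested genes, 29.6% with MHCII-deleted mice higher and 24% lower. Zfp36l2 (0.22 ± 0.501) and Rc3h2 (0.40 ± 0.277) did not pass (edgeR, adjusted p = 0.775 and 0.303).

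These decreases went along with the lower sum of T cell genes and the higher sum of melanoma markers in both tumor libraries from MHCII-deleted mice. Relative to the pan-T cell genes, Zc3h12a still fell, by 0.67 (edgeR, adjusted p = 0.0157). Zfp36 (-0.17), Zfp36l1 (-0.24), Zc3h12d (0.05) and Rc3h1 (0.45) no longer passed (edgeR, adjusted p = 0.365, 0.261, 0.724 and 0.0840), the last pair with their direction turned. On that scale Rc3h2 (1.47) and Zfp36l2 (1.18) passed as higher (edgeR, adjusted p = 0.00267 and 0.0348), where the median of all tested genes was 1.15.

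Thus 0 of the 7 were called higher and 5 lower between the genotypes in tumor on the TMM scale, where 28.7% of all tested genes were called, 15% higher and 13.7% lower. The median log2 fold change was -0.974 over the 7 and 0.104 over all tested genes. With pan-T scaling 2 of the 7 were higher and 1 lower, where 64.7% of all tested genes were called, 64.2% higher and 0.524% lower. The call of Rc3h1 was lost without tumor library 3 of control mice (-0.49, edgeR, adjusted p = 0.0782) and without tumor library 2 of MHCII-deleted mice (-0.49, edgeR, adjusted p = 0.149), and it lay at the threshold without tumor library 1 of MHCII-deleted mice (-0.73). Limma-voom did not call it either (adjusted p = 0.124), and it was lost in a fit of the compared groups alone (edgeR, adjusted p = 0.0538) and with the GC contrast (edgeR, adjusted p = 0.170). With the GC index Rc3h1 (-0.48), Zfp36l1 (-1.03) and Zc3h12a (-1.68) did not pass (edgeR, adjusted p = 0.571, 0.128 and 0.0637). Zfp36l2 was lower without that library 2 (-1.18, edgeR, adjusted p = 0.0484) and stood at 0.91 without library 1 (edgeR, adjusted p = 0.0855).

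**Figure D2:**
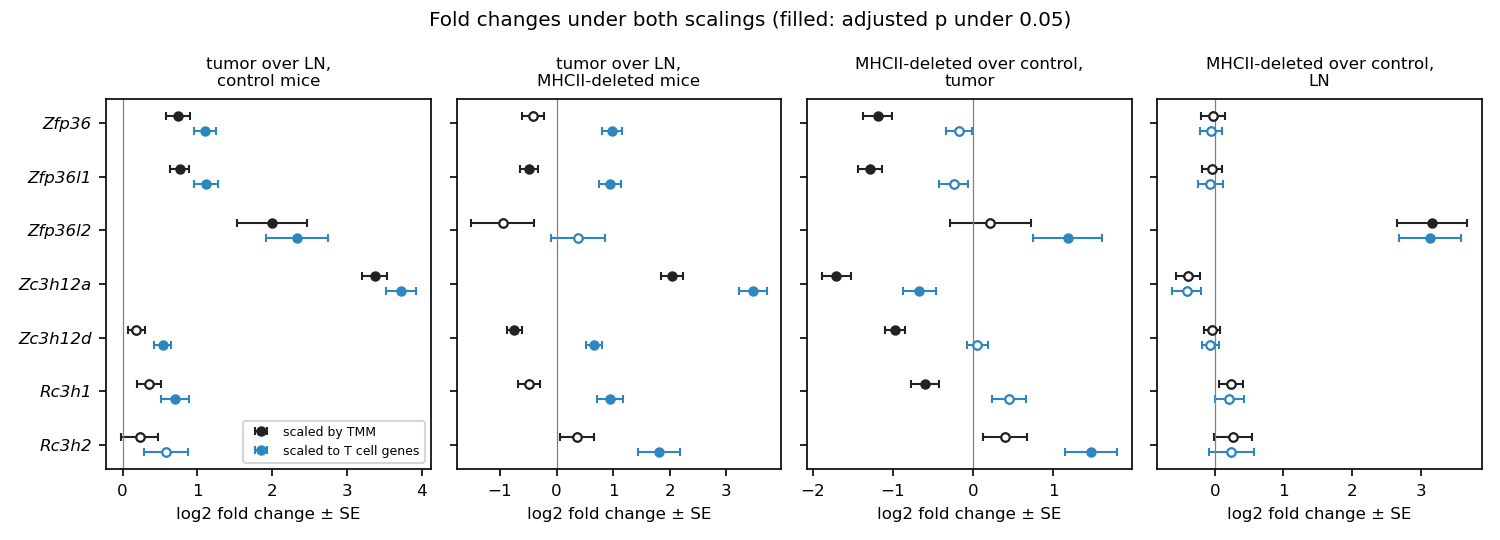
Log2 fold change with its standard error (x axis) of the 7 genes (y axis) in 4 comparisons, with TMM scaling in black and pan-T scaling in blue, filled where the edgeR adjusted p was under 0.05. In the deletion effect in tumor, the 5 decreases on the TMM scale lie near 0 or above with pan-T scaling except that of Zc3h12a (-0.67), and with pan-T scaling 4 of the 5 are not called.

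In LN, Zfp36l2 was the one member called between MHCII-deleted and control mice. It was 8.97-fold higher in MHCII-deleted mice, a log2 change of 3.17 ± 0.514 (edgeR, adjusted p = 0.0436), and 3.14 with pan-T scaling (edgeR, adjusted p = 0.0198). Of all tested genes 1.11% were called in this comparison, 1.07% higher and 0.0359% lower, and with pan-T scaling 2.76%, 2.7% higher and 0.0575% lower. Zfp36 (-0.03 ± 0.173), Zfp36l1 (-0.04 ± 0.142), Zc3h12a (-0.39 ± 0.176), Zc3h12d (-0.04 ± 0.122), Rc3h1 (0.24 ± 0.173) and Rc3h2 (0.27 ± 0.278) did not pass (edgeR, adjusted p of at least 0.548). Libraries did not overlap for Zc3h12a, which was lower in both LN libraries of MHCII-deleted mice, and for Zfp36l2 and Rc3h2, which were higher. Groups did not overlap for 27.3% of all tested genes, 15.4% higher and 11.9% lower.

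The call of Zfp36l2 in LN was lost when any 1 of the 5 LN libraries was left out (log2 fold change 2.95 to 3.36, edgeR, adjusted p = 0.137 to 0.251) and without tumor library 3 of control mice (3.17, edgeR, adjusted p = 0.0769). It was also lost with RLE size factors (3.12, edgeR, adjusted p = 0.0543), with no filter on low counts (edgeR, adjusted p = 0.0760) and with the GC index (0.93, edgeR, adjusted p = 0.914). Without any 1 LN library, edgeR called 0 of all tested genes in this comparison, with 960 to 1268 at an unadjusted p under 0.05.

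The LN libraries of the genotypes also differed in the level of GC-rich genes. A GC contrast was computed per library as the mean centred log2 level of genes with a transcript window over 80% G and C minus that of genes with no window over 75%, with the 7 genes left out. It was 0.270 and 0.196 in LN of MHCII-deleted mice and -0.312, -0.268 and -0.382 in LN of control mice, so the genotypes did not overlap. In tumor it was 0.0723 and 0.561 in MHCII-deleted mice and 0.0447, -0.165 and -0.0168 in control mice. The cDNA had been amplified, and in LN genotype and GC contrast cannot be told apart.

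For Zfp36l2 the 3 LN libraries of control mice were lowest in both level and contrast, and the tumor library of MHCII-deleted mice with the contrast of 0.561 had 267 CPM, against 62.5 CPM in the one with 0.0723. That second library had less Zfp36l2 than each tumor library of control mice, although its contrast was above all 3 of theirs. Among genes with more than 20% of the transcript in GC-rich windows (262 tested), the median log2 change between MHCII-deleted and control LN was 0.910 and 4.20% were called, all 11 higher. Zfp36l2 was itself among these 262 and among the 11. Among the 8754 genes with none, the median was -0.0373 and 0.240% were called. With the GC contrast as a covariate, chosen after the data had been seen, the LN difference of Zfp36l2 was 0.76 (edgeR, adjusted p = 0.612), and the tumor difference between the genotypes was -1.65 (edgeR, adjusted p = 0.000847).

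**Figure D3:**
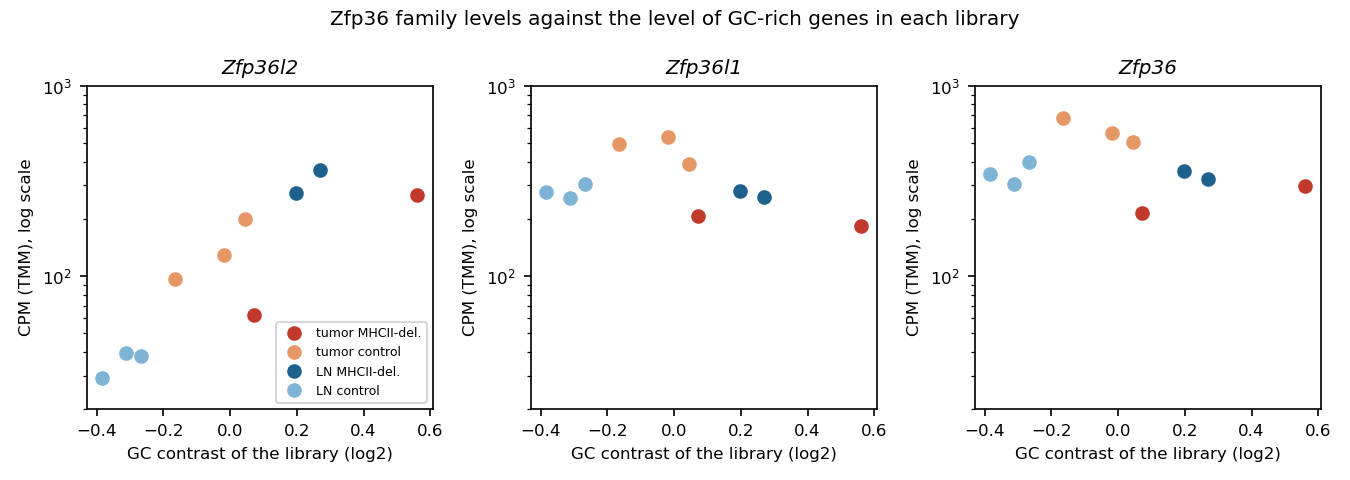
Level of Zfp36l2, Zfp36l1 and Zfp36 (y axis, TMM-normalised CPM on a log scale) against the GC contrast of each of the 10 libraries (x axis, log2). Zfp36l2 is at 29.1 to 39.5 CPM in the LN libraries of control mice, where the contrast is lowest (-0.382 to -0.268), and at 274 to 364 CPM in LN of MHCII-deleted mice, while Zfp36l1 and Zfp36 do not order the libraries in this way.

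The difference between the deletion effects in tumor and in LN was tested as an interaction. It passed for 5 of the 7 genes on the TMM scale, all with a lower value in tumor, where 10.7% of all tested genes passed, 4.14% higher and 6.57% lower. Zc3h12a gave -1.32 ± 0.244 on the log2 scale (edgeR, adjusted p = 0.0111), Zfp36l1 -1.25 ± 0.201 (edgeR, adjusted p = 0.00687), Zfp36 -1.16 ± 0.246 (edgeR, adjusted p = 0.0181) and Zc3h12d -0.93 ± 0.173 (edgeR, adjusted p = 0.0111). Zfp36l2 gave -2.95 ± 0.729 (edgeR, adjusted p = 0.0339), which combines its higher level in LN of MHCII-deleted mice with no called change in tumor. Rc3h1 (-0.84 ± 0.247) and Rc3h2 (0.13 ± 0.395) did not pass (edgeR, adjusted p = 0.0569 and 0.897).

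The median interaction was -1.16 over the 7 genes and -0.0116 over all tested genes. With pan-T scaling, where the median of all tested genes was 1.06, Zfp36l2 alone passed (-1.96, edgeR, adjusted p = 0.0296), while Zfp36 (-0.12), Zfp36l1 (-0.18), Zc3h12a (-0.26) and Zc3h12d (0.12) did not (edgeR, adjusted p = 0.730, 0.631, 0.527 and 0.644), and the direction of Zc3h12d was turned. On that scale 42.9% of all tested genes passed, 42.7% higher and 0.172% lower. On the TMM scale, the interaction of Zfp36l2 was lost in 7 of the 10 omissions of a library and with no filter on low counts (edgeR, adjusted p = 0.0870), and that of Zfp36 without LN library 2 (-1.09, edgeR, adjusted p = 0.0710) or tumor library 1 (-0.94, edgeR, adjusted p = 0.0541) of MHCII-deleted mice.

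The effectors that the 7 proteins work with were described by lists chosen with earlier results of these data known. CCR4-NOT is the deadenylase that the Zfp36 family and the Roquins recruit, and in tumor of control mice 5 of its 12 tested subunits were lower than in LN and 0 higher (median log2 fold change -0.332), where 16.1% of all tested genes were lower and 22.8% higher. Among them were Cnot8 (-0.45, edgeR, adjusted p = 0.00912), a catalytic subunit, and the scaffold Cnot1 (-0.59, edgeR, adjusted p = 0.0405). The count of lower subunits was 1 without LN library 1, 3 without LN library 2, 2 without tumor library 1 and 3 without tumor library 3 of control mice. With pan-T scaling it was 0, with 3 higher, against 5.02% lower and 34% higher of all tested genes. The exosome and its cofactors, which degrade RNA from the 3′ end, had 11 of 16 tested members lower and 0 higher (median -0.496), against the same 16.1% and 22.8%, and 7 lower without LN library 3 of control mice. Examples were Exosc10 (-0.79, edgeR, adjusted p = 0.000147), Mtrex (-0.76, edgeR, adjusted p = 0.000478) and Dis3 (-0.83, edgeR, adjusted p = 0.00227). With pan-T scaling 3 of the exosome list were lower and 1 higher, against the same 5.02% and 34%. The 3 examples named kept their sign on that scale (-0.44, -0.41 and -0.48, edgeR, adjusted p = 0.0149, 0.0199 and 0.0416).

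Decapping and nonsense-mediated decay genes had smaller shares called in tumor of control mice on the TMM scale. Of 19 decapping and 5′ decay genes 5 were lower and 0 higher than in LN, against 16.1% lower and 22.8% higher of all tested genes. Dcp1a, a decapping cofactor, was among the 5 (-0.66, edgeR, adjusted p = 0.00521). With pan-T scaling 0 were lower and 2 higher, against 5.02% and 34% of all tested genes. The lower count was 2 without LN library 1 or tumor library 3 of control mice, and 3 without either LN library of MHCII-deleted mice. Of 11 nonsense-mediated decay genes 3 were lower and 0 higher, against 16.1% and 22.8% of all tested genes. With pan-T scaling 1 was lower and 3 higher, against 5.02% and 34%. The 3 lower on the TMM scale included Pnrc2 (-1.05, edgeR, adjusted p = 2.9e-05) and the kinase Smg1 (-0.71, edgeR, adjusted p = 0.00683). Pnrc2 kept its call with pan-T scaling (-0.70, edgeR, adjusted p = 0.00192) and Smg1 did not (-0.36, edgeR, adjusted p = 0.198). The list of other deadenylation factors went the other way in part, with 4 of 10 higher and 2 lower, against 22.8% and 16.1% of all tested genes. With pan-T scaling 4 were higher and 0 lower, against 34% and 5.02%. The 4 were the BTG and Tob proteins, adaptors that bind the deadenylase: Tob1 (1.93), Tob2 (1.79), Btg1 (1.27) and Btg2 (1.11), with edgeR adjusted p of 0.000105, 1.46e-06, 1.84e-05 and 0.000363. Btg2 was named after its values had been seen. All 4 kept this direction with pan-T scaling (2.27, 2.14, 1.61 and 1.46).

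In the deletion effect in tumor the same lists mainly turned with the scaling. Tob2 (-0.99), Btg1 (-1.06) and Btg2 (-1.18) were lower in tumor of MHCII-deleted mice on the TMM scale (edgeR, adjusted p = 0.000376, 0.000413 and 0.00124) and stood at 0.03, -0.03 and -0.17 with pan-T scaling (edgeR, adjusted p = 0.778, 0.843 and 0.356). CCR4-NOT had 1 subunit higher and 2 lower on the TMM scale, and 12 of 12 higher with pan-T scaling, where the shares of all tested genes called higher were 15% and 64.2%. Its lower count was 0 or 1 in every omission of a library. The exosome list had 2 higher and 2 lower, with Dis3, its processive nuclease, higher (0.96, edgeR, adjusted p = 0.00275) and Exosc3 lower (-0.88, edgeR, adjusted p = 0.000941), and 15 of 16 higher with pan-T scaling, against the same shares of all tested genes. Of the nonsense-mediated decay list 0 of 11 passed by edgeR, 3 had an unadjusted p under 0.05, and DESeq2 and limma-voom called 0 each. With pan-T scaling 10 of that list were higher and 0 lower, against 64.2% and 0.524% of all tested genes.

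The regulators that act on the 7 genes' products changed in both directions. Dusp1, the phosphatase that switches off the p38 kinase upstream of tristetraprolin, averaged 1114 ± 75.6 CPM in tumor of control mice and 125 ± 39.0 CPM in LN of control mice (SD, n = 3 each), a rise of 3.15 (edgeR, adjusted p = 5.13e-06; 3.50 with pan-T scaling). Malt1, the protease that cuts Regnase-1 and the Roquins, fell by 0.68 in tumor of MHCII-deleted mice relative to control mice (edgeR, adjusted p = 0.00564), but stood at 0.36 with pan-T scaling (edgeR, adjusted p = 0.0682). In all, 2 of the 18 listed regulators were higher and 9 lower in that comparison, against 15% and 13.7% of all tested genes. With pan-T scaling 10 were higher and 0 lower, against 64.2% and 0.524%.

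Mapkapk2, the kinase that phosphorylates tristetraprolin, had 188 to 205 CPM in LN of MHCII-deleted mice and 27.0 to 42.0 CPM in LN of control mice, and 49.8 and 408 CPM in tumor libraries from MHCII-deleted mice. Its groups did not overlap in LN, yet the difference did not pass on the TMM scale (2.57, edgeR, adjusted p = 0.0908) and did with pan-T scaling (2.54, edgeR, adjusted p = 0.0472). Mapk14, which encodes p38 alpha, rose in the same comparison by 2.48 (edgeR, adjusted p = 0.0497), and Dusp1 by 1.15 (edgeR, adjusted p = 0.0497). Of all tested genes 1.07% were called higher there, and 0 were called with the GC index or the GC contrast as covariate. Genotype and GC contrast cannot be told apart in LN, which holds for these rises too.

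Reported targets of the 7 proteins formed the list with the most calls. In tumor of control mice 25 of 34 tested targets were higher than in LN and 3 lower, against 22.8% and 16.1% of all tested genes. With pan-T scaling 26 were higher and 3 lower, against 34% and 5.02%. Icos, a costimulatory receptor whose mRNA the Roquins bind, averaged 2099 ± 159.6 CPM in tumor and 964 ± 55.1 CPM in LN of control mice (SD, n = 3 each), a rise of 1.12 (edgeR, adjusted p = 0.000143). Nfkbiz rose by 4.45 (edgeR, adjusted p = 2.74e-07), Nfkbid by 1.77 (edgeR, adjusted p = 0.000492) and Rel by 1.55 (edgeR, adjusted p = 2.34e-05), all 3 encoding NF-kappaB family regulators. Tnf (-0.52, edgeR, adjusted p = 0.313) and Il2 (-1.04, edgeR, adjusted p = 0.405) did not pass, and Il2 averaged 0.291 CPM in tumor and 0.603 CPM in LN of control mice. Bcl2 (-2.31) and Myc (-1.11) fell (edgeR, adjusted p = 6.91e-06 and 0.000566). The list includes activation genes that Tregs are known for, such as Ctla4, and nothing particular to the 7 proteins is read from its counts.

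In MHCII-deleted mice 17 of the 34 targets were higher in tumor than in LN and 9 lower, against 24.3% and 20.1% of all tested genes, and 5 were lower without LN library 1 of that genotype. With pan-T scaling 27 were higher and 1 lower in that comparison, against 70.1% and 1.61%. Between the genotypes in tumor 2 were higher and 16 lower on the TMM scale, against 15% and 13.7% of all tested genes. With pan-T scaling 9 were higher and 2 lower, against 64.2% and 0.524%. Il10, an anti-inflammatory cytokine, fell in tumor of MHCII-deleted mice by 1.59 (edgeR, adjusted p = 0.000207) and on the pan-T scale by 0.56 (edgeR, adjusted p = 0.0101), and Nfkbid by 1.73 (edgeR, adjusted p = 0.00246) and on the pan-T scale by 0.74 (edgeR, adjusted p = 0.0180). Icos (-1.19) and Rel (-0.93) also fell on the TMM scale (edgeR, adjusted p = 0.000629 and 0.00232) but not with pan-T scaling, where Icos stood at -0.16 and Rel at 0.10 (edgeR, adjusted p = 0.297 and 0.603). In LN, where 0.0359% of all tested genes were lower, 3 targets were lower in MHCII-deleted mice: Il10 (-1.55, edgeR, adjusted p = 0.0255), Ctla4 (-0.64, edgeR, adjusted p = 0.0436) and Icos (-0.75, edgeR, adjusted p = 0.0497). Together with Mapk14 and Dusp1 they were the only calls of the 9 lists in LN on the TMM scale by edgeR, and like Zfp36l2 they were not called without any 1 LN library.

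Of 15 other proteins that bind AU-rich or U-rich elements, 3 were higher and 3 lower in tumor of control mice than in LN, and 5 and 0 with pan-T scaling, where 38.9% and 39% of all tested genes were called. Without LN library 2 of control mice 1 was lower. Between the genotypes in tumor 2 were higher and 2 lower, and 13 and 0 with pan-T scaling, where 28.7% and 64.7% of all tested genes were called.

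A list of paralogs of the 7 genes and other RNA regulators, such as Mex3c, had 8 tested genes. Of these, 3 were higher and 0 lower in tumor of control mice than in LN, against 22.8% and 16.1% of all tested genes. With pan-T scaling 5 were higher and 0 lower, against 34% and 5.02%. Zfp36l3, a further paralog, had a count of 0 in every library. Zc3h12c (Regnase-3) averaged 23.5 ± 7.73 CPM in tumor and 3.02 ± 1.39 CPM in LN of control mice (SD, n = 3 each), a rise of 2.96 (edgeR, adjusted p = 0.00144; 3.31 with pan-T scaling), so it moved in the direction of Zc3h12a at a lower level. Zc3h12b stayed between group means of 1.29 and 2.81 CPM and did not pass in any of the 5 comparisons (edgeR, adjusted p of at least 0.744). Mex3c and N4bp1 also rose in tumor of control mice (1.29 and 1.36, edgeR, adjusted p = 0.00244 and 0.00638).

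**Figure D4:**
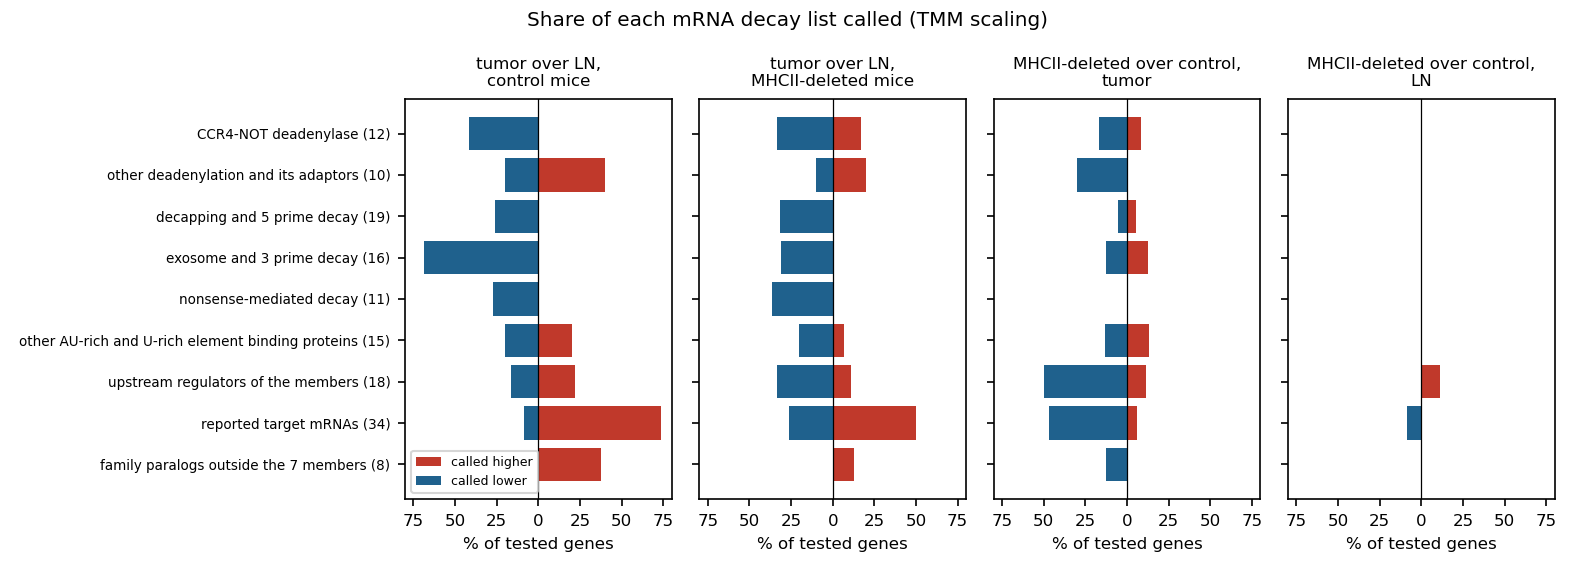
Share of the tested genes of each of 9 lists (y axis, number tested in brackets) called higher (right, red) or lower (left, blue) by edgeR on the TMM scale in 4 comparisons (x axis, %). In tumor over LN of control mice 25 of 34 reported targets were higher, where 22.8% of all tested genes were. Between the genotypes in tumor 16 of 34 were lower in MHCII-deleted mice and 2 higher, against 13.7% and 15% of all tested genes. With pan-T scaling 2 were lower and 9 higher, against 0.524% and 64.2%. Of the exosome list 11 of 16 were lower in tumor than in LN of control mice, against 16.1% of all tested genes. With pan-T scaling 3 of that list were lower and 1 higher, against 5.02% and 34%.

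The genes whose pattern over the 10 libraries was most like that of each member were found by the root mean square difference of centred log2 levels among 8722 genes of at least 10 CPM. For Zfp36 these were Sh2d2a (0.133), Rusc1 (0.139) and Selplg (0.149), and for Zfp36l1 they were Sema4b (0.127), Gata3 (0.132) and Rusc1 (0.141). Zfp36 and Zfp36l1 were also the closest pair among the 7 (0.179), and Zfp36l2 and Zc3h12a the farthest (1.85). Zc3h12a was nearest to Fam110a (0.242), Slc15a3 (0.261) and Id2 (0.262). Zc3h12d was nearest to Esyt1 (0.0896), Rc3h1 to Zmiz1 (0.0767) and Rc3h2 to Usp22 (0.124). For Zfp36l2 the nearest genes were farther off, Pnrc1 (0.295), Plk3 (0.357) and Ppm1d (0.398), with transcript windows of up to 85, 86 and 82% G and C. Such windows also occur among the nearest genes of other members, with 91% in Zmiz1 and 81% in Esyt1 and Usp22. These are descriptions over 10 libraries that share depth, tissue and amplification.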

How the data were processed

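Tregs from tumor and LN were profiled by RNA-seq. Per the labels' protocols, SMARTer Ultra Low cDNA was amplified, turned into Nextera XT libraries and sequenced as single reads of 50 bases. CASAVA 1.8.2, featureCounts 1.4.6, STAR 2.4 and GRCm38 are listed in the submitters' processing notes. The annotation release and strand setting are not given in the sources used here. The file deposited by the authors holds raw read counts for each Ensembl gene and library, not normalized.

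Symbols, positions, exon lengths and transcript sequences came from GENCODE M21. Genes were filtered with filterByExpr (minimum count 10, 4 groups), scaled with TMM and tested in R 4.3.3 with edgeR 4.0.16, by a robust quasi-likelihood fit of 4 group means to all 10 libraries. Benjamini-Hochberg adjusted p under 0.05 was called, over all 13920 genes. The standard error is the fold change divided by the square root of F. The code was tested on simulated data. Replicate libraries differed beyond counting noise (mean chi-square per gene of 30.9 to 165.9).

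Alternatives were RLE size factors, scaling to pan-T cell genes, DESeq2 1.42.0, limma-voom with quality weights (limma 3.58.1), no filter, non-robust spread, only the groups compared, a replicate block, a GC index as covariate (the mean centred log2 level of genes with a 100-base window over 75% G and C) and the omission of each library. A GC contrast as covariate and the lists under pan-T scaling and under omissions were chosen after seeing the data. The members and lists were chosen with earlier results of these data known. All 7 members were named, with 11 fixed genes, the 3 nearest patterns of each member, and up to 3 called genes per direction, list and comparison by adjusted p, of which the text gives a part. Btg2 in tumor over LN of control mice was named after its values had been seen. Exosc6 was not matched, and Ptprcap was at 0.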

Additional observations from a re-analysis of the deposited data

Results flagged for a closer look

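In 5 genes the deletion effect differed between tumor and LN by the interaction test on the TMM scale. The deletion effect in tumor minus that in LN (log2, edgeR quasi-likelihood test) was -1.157 for Zfp36 (adjusted p = 0.0181), -1.248 for Zfp36l1 (adjusted p = 0.00687), -2.948 for Zfp36l2 (adjusted p = 0.0339), -1.323 for Zc3h12a (adjusted p = 0.0111) and -0.9322 for Zc3h12d (adjusted p = 0.0111). With pan-T scaling the same differences were -0.12, -0.18, -1.96, -0.26 and 0.12, and that of Zfp36l2 alone passed (edgeR, adjusted p = 0.0296). The summed pan-T cell genes were lower and the melanoma markers higher in tumor libraries of MHCII-deleted than of control mice, and their part in the values of Zfp36, Zfp36l1, Zc3h12a and Zc3h12d was not tested. For Zfp36l2 the GC contrast of the LN libraries moved with genotype and cannot be told apart from it.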

How the results depend on the processing

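On the TMM scale 4, 3, 5, 1 and 5 of the 7 genes were called for tumor over LN in control mice, the same in MHCII-deleted mice, the deletion effects of tumor and of LN, and the interaction. With the GC index as covariate the first 4 counts were 1, 1, 2 and 0, and with pan-T scaling the counts were 6 for the second, 3 for the third and 1 for the interaction. In LN 0 were called with RLE size factors, no filter, the replicate block, the GC index and the GC contrast (edgeR), where 2, 2, 1, 0 and 2 had an unadjusted p under 0.05, and DESeq2 and limma-voom called 1 each. Leaving out 1 library gave 4 to 4, 2 to 4, 4 to 5, 0 to 1 and 3 to 5 called genes in the order above. The LN count was 0 without any 1 LN library or tumor library 3 of control mice, and the interaction count was 3 without LN library 2 of MHCII-deleted mice.

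Directions reversed as follows (log2). In tumor over LN of control mice, Zfp36 was -0.26, Zfp36l2 -2.53 and Zc3h12d -0.40 with the GC index, and Rc3h2 was -0.062 without tumor library 2 of control mice. In tumor over LN of MHCII-deleted mice, pan-T scaling gave 0.98 for Zfp36, 0.94 for Zfp36l1, 0.38 for Zfp36l2, 0.66 for Zc3h12d and 0.94 for Rc3h1, the GC index gave 0.0018 for Zfp36l1, and Rc3h2 was -0.11 without tumor library 1. In the deletion effect in tumor, pan-T scaling gave 0.055 for Zc3h12d and 0.45 for Rc3h1, Zfp36l2 was -0.023 with limma-voom, -3.00 with the GC index, -1.65 with the GC contrast and -1.18 without tumor library 2 of MHCII-deleted mice, and Rc3h2 was -0.068 without library 1. In LN, Zfp36 was 0.0047 with limma-voom, 0.083 without LN library 2 of control mice and 0.036 without LN library 1 of MHCII-deleted mice, Zfp36l1 was 0.0077 with the block, 0.17 with the GC index, 0.20 with the GC contrast and 0.036 and 0.010 without those 2 libraries, and Zc3h12d was 0.055 without LN library 2 of control mice. In the interaction, pan-T scaling gave 0.12 for Zc3h12d and 0.24 for Rc3h1, and Rc3h2 was -0.26 with the GC contrast, -0.00039 without tumor library 3 of control mice and -0.34 without tumor library 1 of MHCII-deleted mice. The highest values, or for LN the lowest, in those omissions were 0.36, 0.71, 0.75 and 0.48 for Rc3h2 in tumor over LN of control mice, tumor over LN of MHCII-deleted mice, the genotype difference in tumor and the interaction, 0.91 for Zfp36l2 between the genotypes in tumor, and -0.12 for Zfp36, -0.097 for Zfp36l1 and -0.099 for Zc3h12d in LN. The cause was not tested. Of 343 fold changes of single genes under the other alternatives, 285 kept their direction and side of the threshold, as did 317 of 350 under omissions.

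Deviations of same-numbered libraries correlated only weakly (correlations between tissues of 0.0352 in MHCII-deleted mice and 0.0203 to 0.0462 in control mice, -0.148 and -0.0967 between genotypes in tumor, -0.0487 and -0.0959 in LN), each under the 0.1 set for pairing, so the libraries were taken to share only a number. Between tissues every same-numbered pair was positive and every other pair negative. Deviations were taken from group means, so these signs are tied to each other, and in groups of 2 they come from 1 value. They are at most a weak hint from the data and not the design. With the replicate block the counts of called genes were 4, 4, 4, 0 and 4 in the order above. Of all tested genes, the share called in LN was 1.11% on the TMM scale and 0% with the block, either GC covariate or without any 1 LN library, against 4.65% with DESeq2 and 5.65% with limma-voom. With the GC index it was 2.37% (38.9% without) and 7.18% (44.4%) for tumor over LN in control mice and in MHCII-deleted ones, and 5.23% (28.7%) between genotypes in tumor. The index did not overlap between groups and cannot be told apart from tissue and genotype. Only libraries on 1 side of the GC index could not be compared, because the libraries do not fall into 2 levels, and this alternative was not run. All 7 genes had at least 464 counts in every library, and what fewer counts would change was not tested.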
